A study of Rattus norvegicus with 11 samples.

Results

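The genes described here encode the mitochondrial respiratory chain and its ATP synthase, measured in the trigeminal ganglion (TRG) of the rat. A gene was taken as a member if a probe with a curated RefSeq mRNA accession mapped to a symbol beginning with Nduf, Uqcr, Cox4, Cox5, Cox6, Cox7, Cox8 or Atp5, and the brightest probe on average was used where a gene had several. This gave 76 genes out of 13888 with a matched probe, namely 32 of complex I, 5 assembly factors of complex I, 7 of complex III, 17 of complex IV and 15 of complex V. Male Wistar rats had received 50 μl of complete Freund's adjuvant (CFA, killed mycobacteria in paraffin oil, 1 mg/ml) under the skin of the whisker pad on 1 side, under ketamine and xylazine anaesthesia, and the ganglia were taken 7 days later. The CFA (ipsilateral) group held 6 ganglia, from rats 1, 2, 3, 5, 6 and 8, and the contralateral group held 5, from rats 1, 2, 3, 5 and 6. The labels name no allele, and both sides of a rat shared the anaesthesia. The contralateral ganglia came from injected rats, so the comparison is between sides and not with uninjected animals. Each array carried the RNA of 1 ganglion in 1 colour, and values are log2 of the background-subtracted signal after quantile normalisation.

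The respiratory chain sits in the inner mitochondrial membrane. Complex I takes electrons from NADH and complex II from succinate, complex III passes them to cytochrome c, and complex IV (cytochrome c oxidase) hands them to oxygen, while protons are pumped out of the matrix by complexes I, III and IV. Complex V, the ATP synthase, makes ATP from the returning protons. Sensory neurons use much of this ATP to restore ion gradients after firing and to run transport along long axons. The genes measured here are those of the nucleus, since the mitochondrial genome, which encodes further core subunits, is not covered by the symbols of the rule.

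All 11 arrays gave signal for this gene set. Of the 76 genes 74 were well above background on every array, against 70.9% of all probes, and 66 were among the 8228 brightest of the 24684 probes. The exceptions were Uqcrq, a small subunit of complex III, and Cox8c, the testis form of a complex IV subunit, whose probes were well above background on no array, so their values below carry no level. Each gene rested on 1 spot per array. Slides were inferred from the scan times in the array headers, and arrays with the same time were taken as 1 slide. On this reading the arrays lay on 5 slides, and only slide 2 held both groups (CFA rat 1 with contralateral rats 5 and 6). Slides 1 and 3 held the other contralateral arrays (rat 3, and rats 1 and 2), and slides 4 and 5 the other CFA arrays (rats 2 and 3, and rats 5, 6 and 8). A difference between the groups and one between slides can therefore be separated only on slide 2. Between 68.9% and 82.8% of the spots of an array were well above background, and precision is limited by the small number of arrays. In a whole ganglion fewer cells of a type and less RNA per cell cannot be told apart.

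The transcripts of the respiratory chain were close to equal on the CFA and contralateral sides. The median log2 change, CFA minus contralateral, was -0.03 over the 76 genes and -0.041 over all probes. With scaling to the 75th percentile in place of quantile normalisation these medians were -0.135 and -0.063. It lay within 0.1 of 0 for 48 genes and within 0.25 for 71, and ranged from -0.48 for Cox8b to 0.48 for Ndufa7. The sign was negative for 52 genes and positive for 24, and it was negative for 14187 of the 24684 probes. At the threshold of the study, an unadjusted p of 0.05 or less with an absolute fold change over 2, limma called 0 of the 76 genes, where 2.02% of all probes passed. At an unadjusted p of 0.05 or less, 6 genes (7.89%) were lower on the CFA side, where 6.75% of all probes were lower, and 0 genes were higher, where 4.02% of all probes were higher. None of the genes had an adjusted p of 0.05 or less, and neither had any probe (0.0% of 24684). With an exact two-sided permutation test over all 462 divisions of the arrays into 6 and 5, 8 genes were lower and 2 higher at a p of 0.05 or less, against 7.66% and 3.81% of all probes. The share of lower genes was thus near that of all probes, a set not matched for brightness. Of the 2469 brightest probes 60 were lower and 78 higher at an unadjusted limma p of 0.05 or less. That is a smaller lower share than among the genes. In the permutation test 184 of these bright probes were lower and 121 higher. Of the 8228 brightest probes 293 were lower and 205 higher in limma.

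The limma intervals give the size of change that these arrays leave room for, in a fit with no term for the slide. Group and slide could be separated only on slide 2. A difference between slides can therefore be part of a change, and the intervals do not account for it. The 95% interval of the change lay within 1.5-fold either way for 68 of the 76 genes, and so it did for 50.1% of all probes. It lay within 1.2-fold for 38 genes, against 9.64% of all probes, and within 2-fold for 75 genes, against 77.6%. All of these counts include Cox8c, and that at 2-fold also Uqcrq, although neither was well above background on any array. Ndufa7 was the exception at 2-fold, with an interval from -0.89 to 1.86 on the log2 scale. Narrow intervals were usual for bright probes. Of the 2469 brightest probes 2335 also lay within 1.5-fold and 977 within 1.2-fold. By complex, the intervals lay within 1.5-fold for 29 of 32 genes of complex I, 5 of 5 assembly factors, 6 of 7 genes of complex III, 13 of 17 of complex IV and 15 of 15 of complex V. These intervals are not adjusted for the number of genes, and they hold only relative to the other transcripts of the array, since quantile normalisation gives every array the same distribution.

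**Figure D1:**
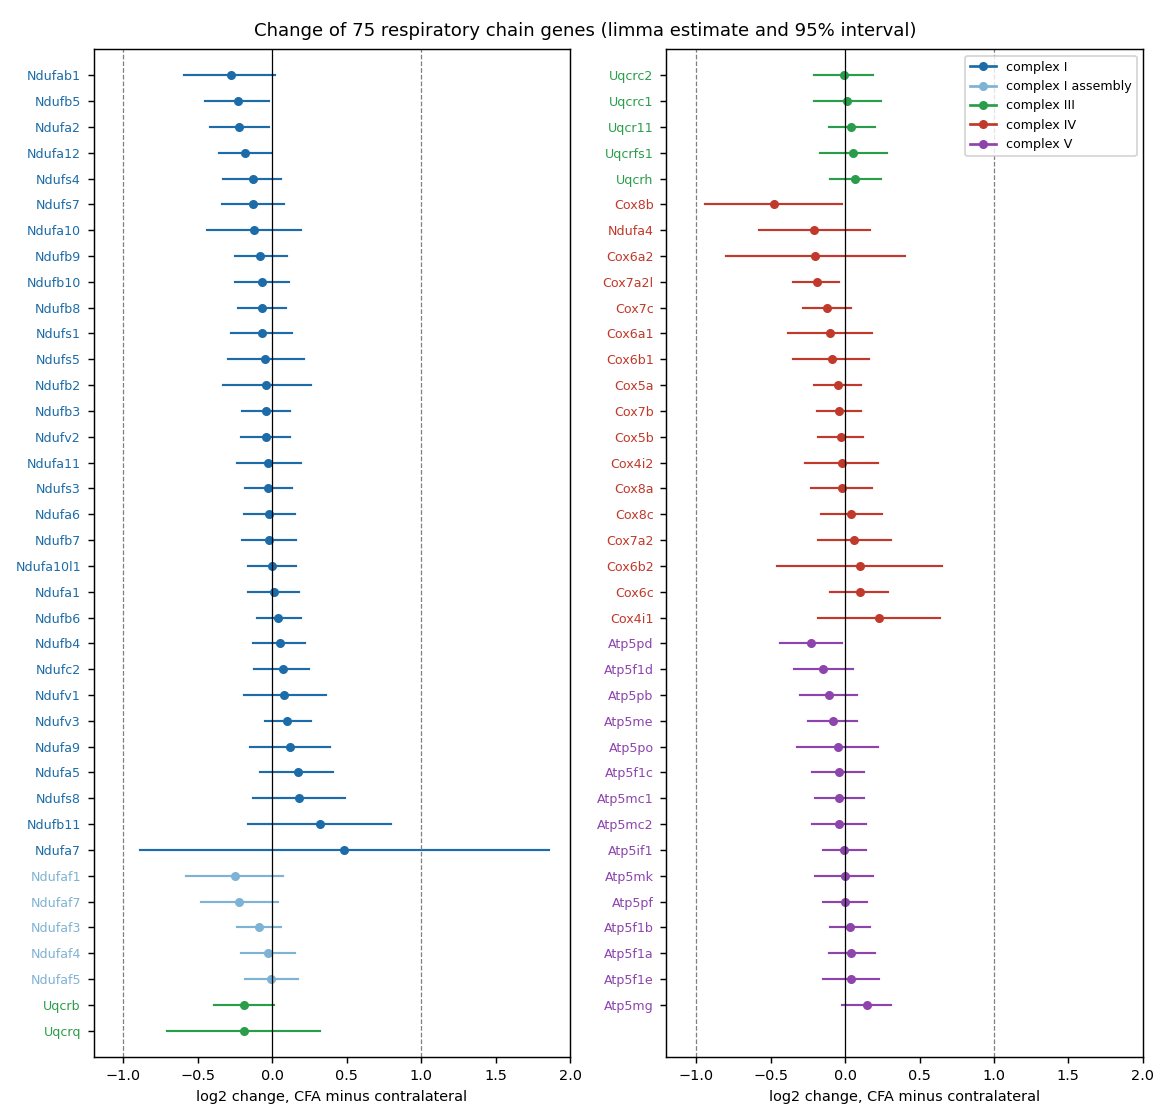
Log2 change (CFA minus contralateral, x axis) of 75 of the 76 respiratory chain genes, as the limma estimate (point) with its 95% interval (line), coloured by complex and ordered by change within each complex. Dashed lines mark a 2-fold change. Over all 76 genes 71 estimates lie within 0.25 of 0, and Ndufa7 has the widest interval.

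Within complex I, the entry point for electrons from NADH, 3 accessory subunits were lower on the CFA side at an unadjusted p of 0.05 or less. None was higher. Ndufa2 read 11.41, 11.18, 11.36, 11.37 and 11.43 contralaterally (rats 1, 2, 3, 5 and 6), and 11.23, 11.33, 11.09, 11.16, 10.91 and 11.06 on the CFA side (rats 1, 2, 3, 5, 6 and 8). The groups overlapped through the contralateral array of rat 2 and the CFA arrays of rats 1 and 2, and the log2 change was -0.22 (standard error 0.09, adjusted limma p = 0.448, exact permutation p = 0.0216). Ndufb5, a membrane-arm subunit, read 11.75, 11.75, 11.71, 11.68 and 11.50 on the contralateral arrays and 11.47, 11.33, 11.16, 11.60, 11.53 and 11.57 on the CFA arrays, in the same order of rats. Only the contralateral array of rat 6 fell within the CFA range, and the change was -0.23 (standard error 0.10, adjusted limma p = 0.451, exact permutation p = 0.0216). Ndufa12, an accessory subunit of the hydrophilic arm, read 15.96, 16.04, 15.96, 15.86 and 15.79 contralaterally and 15.76, 15.69, 15.59, 15.72, 15.77 and 15.88 on the CFA side. CFA rat 8 lay above contralateral rats 5 and 6. Ndufa12 was lower on the CFA side in 5 of 5 rats with both sides, by 0.01 to 0.36, with a change of -0.18 (standard error 0.08, adjusted limma p = 0.455, exact permutation p = 0.0152). Among all members Uqcrb, Cox7a2l, Cox7c and Atp5pb were also lower in 5 of 5 rats, and Ndufv1 and Cox4i1 were higher in 5 of 5. The share of all probes with the same sign in 5 of 5 rats was not counted, so these cases are a description only.

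The core subunits of complex I, which bind the flavin and the iron-sulphur clusters, had no gene below an unadjusted p of 0.05. Of 7 measured, 5 had a negative and 2 a positive change, from -0.13 to 0.18, and all 7 intervals lay within 1.5-fold. Ndufs1, the largest subunit, had a difference of -0.07 (standard error 0.09). Ndufv1, which carries the flavin, was higher on the CFA side in 5 of 5 rats, by 0.09 to 0.26. Rat 8, which has no contralateral array, had the lowest value of Ndufv1 at 13.15, and over all arrays the change was 0.08 (standard error 0.12, exact permutation p = 0.502). All 5 assembly factors had a negative change, with a median of -0.093, where 14187 of the 24684 probes were also negative. Of the 5 factors 0 were at an unadjusted limma p of 0.05 or less. Ndufaf7, a methyltransferase, had a difference of -0.22 (standard error 0.12, exact permutation p = 0.0931), Ndufaf1 of -0.25 (standard error 0.15, p = 0.0974) and Ndufaf3 of -0.09 (standard error 0.07, p = 0.0346). The CFA array of rat 3 had the lowest value of each of these genes, at 10.74, 9.13 and 13.65. On that array the median deviation of all probes from their own means was -0.097. Ndufaf3 and Ndufv3 each had a further probe, with differences of -0.11 and 0.42 against -0.09 and 0.10 for the probes used.

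Complex III, the cytochrome bc1 complex, had no gene at an unadjusted limma p of 0.05 or less, and 4 of its 7 genes had a positive change. Its catalytic Rieske protein Uqcrfs1 had a difference of 0.05 (standard error 0.10), the core protein Uqcrc1 of 0.01 (standard error 0.10) and the hinge protein Uqcrh of 0.07 (standard error 0.08). Uqcrb, a small subunit at the quinone site, read 11.65, 11.60, 11.67, 11.65 and 11.49 on the contralateral arrays and 11.60, 11.43, 11.12, 11.46, 11.43 and 11.47 on the CFA arrays, lower in 5 of 5 rats by 0.05 to 0.55. Its change was -0.19 (standard error 0.09, adjusted limma p = 0.480, exact permutation p = 0.0173), and it was 0.03 within slide 2.

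Complex IV held the gene whose groups did not overlap and the gene with the largest negative change. Cox7a2l, also known as SCAF1, is related to the Cox7a subunits and links complexes III and IV into supercomplexes. It read 16.02, 15.97, 15.87, 15.92 and 15.83 contralaterally (rats 1, 2, 3, 5 and 6), and 15.81, 15.70, 15.67, 15.80, 15.69 and 15.72 on the CFA side (rats 1, 2, 3, 5, 6 and 8). Every CFA array lay below every contralateral array, and Cox7a2l was lower in 5 of 5 rats by 0.12 to 0.28. The change was -0.19 (standard error 0.07, 95% interval -0.35 to -0.04, adjusted limma p = 0.420), and the exact two-sided permutation p was 0.00216, the smallest that 6 against 5 arrays allow. Of all probes 0.664% were lower without overlap and 0.531% were higher without overlap. Among the 76 genes there was 1 of the former and 0 of the latter. Cox8b, the form of subunit 8 used in heart and skeletal muscle, read 9.57, 9.56, 9.48, 9.21 and 8.92 contralaterally and 9.09, 9.06, 8.27, 9.26, 9.13 and 8.40 on the CFA side. The CFA arrays of rats 3 and 8 lay well below all the others, the remaining CFA arrays lay between the contralateral values of rats 6 and 3, and the change was -0.48, a 1.39-fold lower value (standard error 0.21, adjusted limma p = 0.458, exact permutation p = 0.0628).

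The muscle form Cox8b can be set beside the skeletal muscle markers of the ganglion samples. All 10 such markers measured were well above background on every array, and the log2 of their summed signal was 13.16 to 13.47 on the CFA arrays and 13.35 to 13.59 on the contralateral arrays. Most of this sum came from Acta1 alone, at 13.02 to 13.37 on the CFA arrays and 13.22 to 13.49 on the contralateral arrays. The changes of the 10 markers ranged from -0.51 for the myosin light chain Myl1 to 0.56 for myoglobin (Mb), with a median of -0.185. At an unadjusted p of 0.05 or less 1 (Mb) was higher and 0 were lower. Their part in the value of Cox8b was not tested. Cox6a2, another muscle form, of subunit 6a, had a difference of -0.20 (standard error 0.27, exact permutation p = 0.494).

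The forms of complex IV subunits found in most tissues had small differences. Cox8a, the common form of subunit 8, had a difference of -0.02 (standard error 0.10), Cox6a1, the partner of Cox6a2, of -0.10 (standard error 0.13), and Cox7a2 of 0.06 (standard error 0.11). Cox5a and Cox5b, which take part in the regulation of the complex, had differences of -0.05 and -0.03 (standard errors 0.07), and Cox7c of -0.12 (standard error 0.07, adjusted limma p = 0.541, exact permutation p = 0.0281). Ndufa4, named after complex I but found to belong to complex IV, had a difference of -0.21 (standard error 0.17, exact permutation p = 0.279). Cox4i1, the common form of subunit 4, which binds ATP as a regulator, read 13.36, 13.84, 13.76, 13.59 and 13.71 on the contralateral arrays and 13.64, 14.00, 14.42, 14.08, 13.89 and 13.25 on the CFA arrays. It was higher on the CFA side in 5 of 5 rats with both sides, by 0.16 to 0.65, while the CFA array of rat 8 gave the lowest value of all. Over all arrays the change was 0.23 (standard error 0.19, exact permutation p = 0.273). With the rat as a replicate block, which leaves rat 8 without weight, it was 0.35 and passed an unadjusted p of 0.05 in limma, at an adjusted p of 0.467. An exact permutation of the sign of the difference over the 5 rats gave p = 0.0625, the smallest that 5 pairs allow. No rat had both sides on 1 slide, and within slide 2 the difference of Cox4i1 was -0.01. Cox4i2, the lung form induced by low oxygen, had a difference of -0.02 (standard error 0.11).

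**Figure D2:**
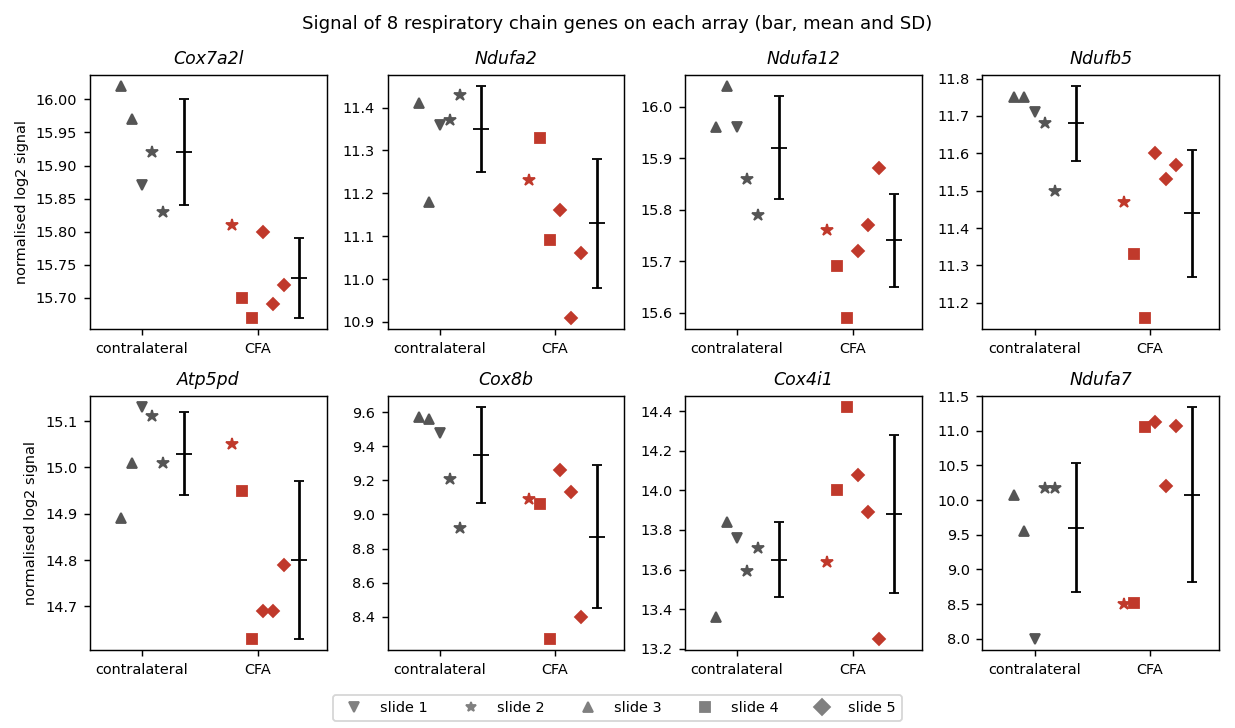
Normalised log2 signal (y axis, a separate scale for each gene) of 8 respiratory chain genes on the 5 contralateral (grey) and 6 CFA (red) arrays, with the mean and SD of each group as bars and the slide of each array as the symbol. Cox7a2l is the gene without overlap between the groups, Cox4i1 has its lowest value in the CFA group, and Ndufa7 spans 3.12 log2 units over the 11 arrays.

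In complex V, the ATP synthase, 11 of 15 genes had a negative and 4 a positive change, and 1 was lower at an unadjusted p of 0.05 or less. Atp5pd, subunit d of the peripheral stalk, read 14.89, 15.01, 15.13, 15.11 and 15.01 contralaterally and 15.05, 14.95, 14.63, 14.69, 14.69 and 14.79 on the CFA side. The CFA arrays of rats 3, 5, 6 and 8 lay below all contralateral arrays and those of rats 1 and 2 within them, and the change was -0.23 (standard error 0.10, adjusted limma p = 0.449, exact permutation p = 0.0281). Atp5mg, subunit g of the membrane part, had a positive difference of 0.15 (standard error 0.07, adjusted limma p = 0.487, exact permutation p = 0.0173). Its sign turned with the background correction, and the difference was -0.07 with no correction and also with normexp. The catalytic head makes ATP from ADP and phosphate. Atp5f1a and Atp5f1b, the alpha and beta chains, had differences of 0.04 and 0.03 (standard errors 0.07 and 0.06), and Atp5f1d, the delta chain of the central stalk, of -0.15 (standard error 0.09, exact permutation p = 0.0801). Of the genes for the ring of c subunits, Atp5mc1 and Atp5mc2 were measured and both had a difference of -0.04 (standard errors 0.08), and the inhibitor Atp5if1, which blocks the reverse reaction, of -0.01 (standard error 0.07).

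The 6 genes that were lower at an unadjusted p of 0.05 or less were also compared within slide 2, which holds 1 CFA and 2 contralateral arrays. There CFA rat 1 minus the mean of contralateral rats 5 and 6 was -0.17 for Ndufa2, -0.12 for Ndufb5, -0.06 for Ndufa12, -0.06 for Cox7a2l, -0.01 for Atp5pd and 0.03 for Cox8b. With the slide as a block 0 of the 76 genes were lower at this threshold and 1 was higher, against 2.87% and 3.89% of all probes. The higher gene was Cox6a2, by 1.11 at an adjusted p of 0.442. This is the difference within slide 2 and rests on 3 arrays, with Cox6a2 at 8.18 for CFA rat 1 and at 7.29 and 6.86 for contralateral rats 5 and 6. With the rat as a replicate block 0 genes were lower and 1 was higher (Cox4i1), against 6.1% and 3.8% of all probes. The changes of the 6 genes were then -0.19 for Cox7a2l, -0.21 for Ndufa12, -0.26 for Ndufb5, -0.21 for Ndufa2, -0.23 for Atp5pd and -0.38 for Cox8b. An exact permutation of signs over the 5 rats gave p = 0.0625 for Cox7a2l and Ndufa12, the smallest it can give, and 0.125 or more for the others. Without the CFA array of rat 1 the count of lower genes was 10, where 9.7% of all probes were lower. Without any other array it lay between 1 and 6, where 4.23% to 9.96% of all probes were lower.

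Promoter sequences are shown for Cox7a2l (the gene without overlap), Ndufa12 (lower in 5 of 5 rats), Cox8b (the largest negative change) and Atp5f1b (the smallest spread), since nuclear genes of the respiratory chain are known for shared binding sites of nuclear respiratory factors. Each is 300 bases of the GRCr8 assembly from RefSeq, 250 before and 50 after the start of the gene, written 5′ to 3′ on the strand of the gene, with capitals for a match to the motif GCGCANGCG of the factor NRF1 on either strand. Cox7a2l lies on chr6:16936324-16936623 (+ strand), Ndufa12 on chr7:30658066-30658365 (+ strand), Cox8b on chr1:205408224-205408523 (- strand) and Atp5f1b on chr7:1099808-1100107 (+ strand).
Cox7a2l: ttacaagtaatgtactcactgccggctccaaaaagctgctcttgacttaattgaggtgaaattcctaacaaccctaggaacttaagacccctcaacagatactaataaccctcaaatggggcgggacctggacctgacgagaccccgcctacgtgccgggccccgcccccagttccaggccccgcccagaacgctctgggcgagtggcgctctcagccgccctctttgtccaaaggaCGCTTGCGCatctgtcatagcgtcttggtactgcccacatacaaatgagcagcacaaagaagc
Ndufa12: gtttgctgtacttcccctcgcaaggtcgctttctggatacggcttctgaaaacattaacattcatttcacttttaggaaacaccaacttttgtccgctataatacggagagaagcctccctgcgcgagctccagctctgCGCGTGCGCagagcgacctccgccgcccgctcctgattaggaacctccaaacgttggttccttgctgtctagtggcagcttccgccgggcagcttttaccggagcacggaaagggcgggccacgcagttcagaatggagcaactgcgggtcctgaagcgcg
Cox8b: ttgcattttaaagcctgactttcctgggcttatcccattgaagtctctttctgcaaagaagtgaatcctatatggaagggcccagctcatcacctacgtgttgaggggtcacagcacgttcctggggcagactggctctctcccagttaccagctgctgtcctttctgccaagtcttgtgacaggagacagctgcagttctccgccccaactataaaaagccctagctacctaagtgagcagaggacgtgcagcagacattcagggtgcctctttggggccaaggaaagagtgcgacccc
Atp5f1b: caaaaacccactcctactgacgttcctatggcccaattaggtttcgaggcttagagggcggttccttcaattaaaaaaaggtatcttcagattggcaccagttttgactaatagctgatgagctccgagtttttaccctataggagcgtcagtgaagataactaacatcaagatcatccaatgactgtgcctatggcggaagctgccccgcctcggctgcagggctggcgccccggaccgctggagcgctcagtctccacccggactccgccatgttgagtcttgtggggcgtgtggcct
The promoters of Cox7a2l and Ndufa12 each held 1 NRF1 match, and those of Cox8b and Atp5f1b held none of the 3 motifs searched. Of the 76 genes 67 had a promoter in the table. The NRF1 motif was found in 17 of them (25.4%), against 6.46% of all 27457 promoters and 9.66% of the 11351 promoters of genes on the array. The motif CCGGAAG, bound by ETS factors such as the nuclear respiratory factor GABP, was in 19 (28.4%), against 9.63% and 13.2%. The motif AAGATGG, of the factor YY1, was in 14 (20.9%), against 7.77% and 7.57%. The letters AAG end the ETS motif and begin that of YY1, so that these can overlap. At least 1 of the 3 motifs was in 39 promoters (58.2%), against 20.9% and 25.9%. The median log2 change was -0.028 in the 17 genes with the NRF1 motif and -0.032 in the 50 without it. It was -0.011 with and -0.043 without the ETS motif, and -0.059 with and -0.028 without the YY1 motif.

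The respiratory chain genes varied little from array to array. The SD over the 11 arrays was below 0.1 on the log2 scale for 28 genes, from 0.1 to 0.2 for 34 and 0.2 or more for 14. Its median was 0.124, against 0.318 over all probes, 0.164 over the 8228 brightest and 0.13 over the 2469 brightest, among which 55 of the genes lay. Atp5f1b had the smallest SD of the genes at 0.03, with values of 17.21, 17.18, 17.24, 17.20 and 17.19 on the contralateral arrays and 17.24, 17.29, 17.21, 17.23, 17.21 and 17.25 on the CFA arrays. Ndufa7, an accessory subunit of complex I, had the largest at 1.1. It read 10.07, 9.56, 8.00, 10.18 and 10.17 contralaterally and 8.50, 8.52, 11.06, 11.12, 10.21 and 11.07 on the CFA side. The low values belonged to contralateral rat 3 and to CFA rats 1 and 2, on slides 1, 2 and 4, and both groups held low and high arrays.

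**Figure D3:**
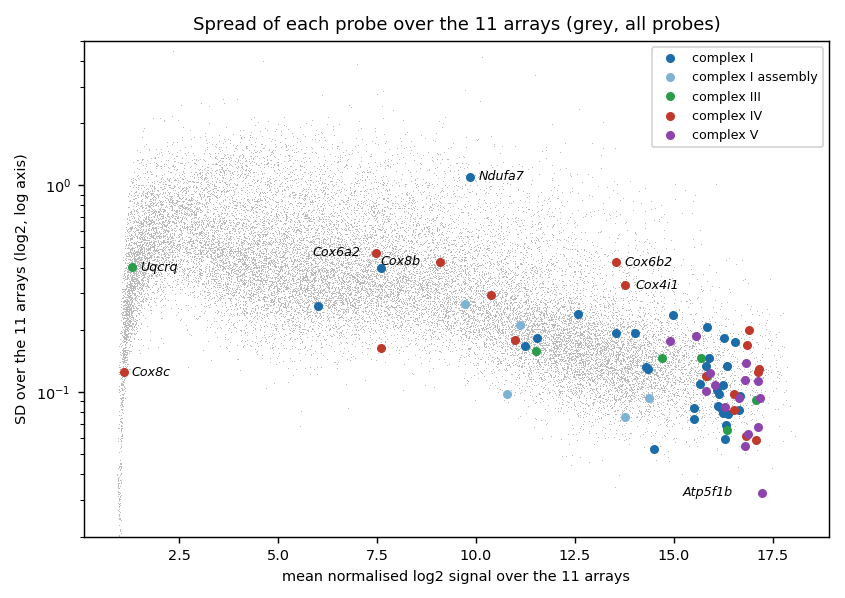
SD over the 11 arrays (y axis, log2 units on a log axis) against the mean normalised log2 signal (x axis) for all 24684 probes (grey) and the 76 respiratory chain genes (coloured by complex). Most of the genes lie at the bright, narrow end of the cloud, Ndufa7 lies above it at 1.1, and Uqcrq and Cox8c lie at the dim end.

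The median deviation of the 76 genes from their own means ranged from -0.094 on the CFA array of rat 3 to 0.036 on that of rat 5, and both extremes were therefore in the CFA group. The contralateral arrays of rats 1, 2, 3, 5 and 6 had medians of 0.034, 0.026, 0.025, 0.017 and -0.049, and the CFA arrays of rats 1, 2, 3, 5, 6 and 8 of 0.001, -0.019, -0.094, 0.036, -0.005 and -0.023. The median deviation of all probes ranged from -0.097 on the CFA array of rat 3 to 0.085 on the contralateral array of rat 1.

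Within the CFA group many of the genes separated by slide, in a comparison that was added after the values had been seen. The CFA arrays of slide 4 (rats 2 and 3) and of slide 5 (rats 5, 6 and 8) did not overlap for 46 of the 76 genes (60.5%), against 41.3% of all probes. All probes are a set not matched for brightness, and so few arrays can also lie apart by chance. The 46 genes include Cox8c, which was not well above background. The values were higher on slide 5 for 31 of these genes and on slide 4 for 15. The median absolute difference between these slides was 0.157 on the log2 scale, against 0.0681 between CFA and contralateral arrays, and over all probes it was 0.235 against 0.167. The slide means rest on 2 and 3 arrays and the group means on 6 and 5. Cox6b2, the testis form of subunit 6b, read 14.23 and 14.26 on slide 4 and 13.29, 13.22 and 12.85 on slide 5, a difference of 1.13. Cox6a1 was higher on slide 4 by 0.48, while Cox7a2 was higher on slide 5, with a difference of -0.37, and so was Ndufa5, with -0.43. The slides also differed in their rats and their day of scanning, and these cannot be told apart.

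**Figure D4:**
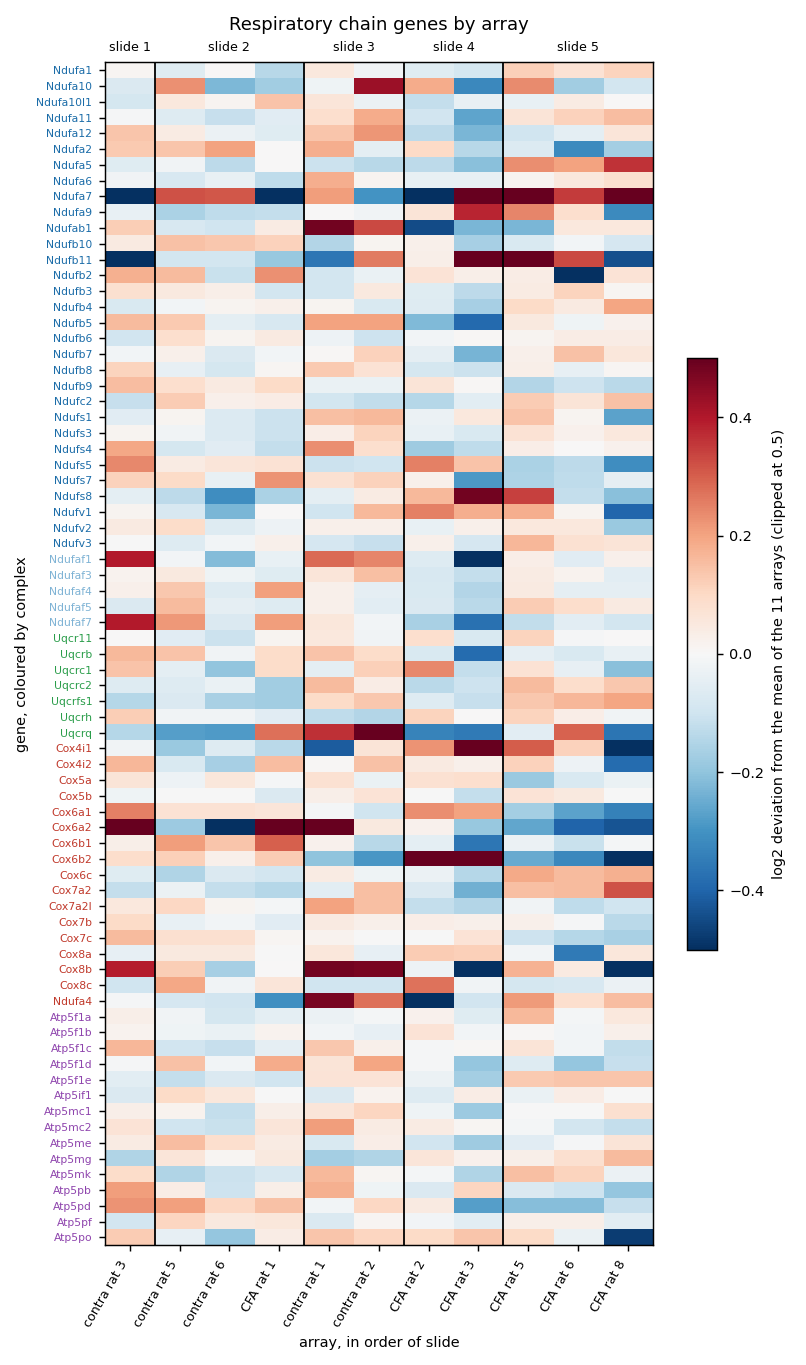
Deviation of 75 of the 76 genes (rows, coloured by complex) from its mean over the 11 arrays (log2 units, colour clipped at 0.5), with the arrays in order of slide (columns, black lines between slides). The CFA arrays of slide 4 and of slide 5 do not overlap for 46 of the 76 genes, and the lowest column median is that of CFA rat 3.

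Other genes of oxidative metabolism were read in the same way. Of complex II, which takes electrons from succinate, 5 genes were measured, 0 of them below an unadjusted p of 0.05, and Sdhc had the smallest p with a change of 0.12 (adjusted p = 0.603). Of the cytochrome c genes, 2 were measured and 0 passed, with Cycs at -0.04 (adjusted p = 0.847). Among 9 assembly factors of cytochrome oxidase 0 passed in limma, and Coa3 had a change of -0.17 (adjusted p = 0.478, exact permutation p = 0.0346). Coenzyme Q carries electrons to complex III, and of 10 genes of its synthesis 1 was lower and 0 were higher. This was Coq3, a methyltransferase of the pathway, which read 14.38, 14.33, 14.45, 14.31 and 14.18 on the contralateral arrays and 14.22, 14.07, 13.90, 14.04, 14.06 and 14.13 on the CFA arrays. Its change was -0.26 (standard error 0.08, adjusted limma p = 0.358, exact permutation p = 0.00649), and it was -0.02 within slide 2.

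Of 14 genes of the tricarboxylic acid cycle, which supplies NADH and succinate, 0 passed, and Idh3a had the smallest p with -0.15 (adjusted p = 0.539). Of 11 carriers, porins and uncoupling proteins 0 passed, with Vdac2, a porin of the outer membrane, at -0.12 (adjusted p = 0.552, exact permutation p = 0.0433). Of 9 mitochondrial antioxidant enzymes 0 passed, and 8 had a positive and 1 a negative change. The negative one was the thioredoxin Txn2, which had the smallest p, at -0.17 (adjusted p = 0.480). Of 14 genes of mitochondrial biogenesis, 1 was higher and 0 were lower. Ppargc1a, the coactivator that raises the expression of respiratory chain genes, had a change of 0.84 (adjusted p = 0.420), but it was well above background on 0 of the 11 arrays and no level can be given. Of the factors whose motifs were searched, Nrf1 and Gabpa had differences of -0.05 and -0.02 (adjusted p = 0.880 and 0.950). Gabpb1, the other subunit of the factor that holds Gabpa, had a difference of -0.14 (adjusted p = 0.489, exact permutation p = 0.0152). Yy1 had one of 0.54 (standard error 0.48, adjusted p = 0.662), with -1.62 within slide 2. Over these 8 lists the median change lay between -0.091 and 0.063.

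Transcripts of sensory neurons, whose cell bodies lie in the ganglion, were present on every array. All 14 neuronal markers measured were well above background on all arrays, and the log2 of their summed signal was 20.41 to 20.52 on the CFA arrays and 20.43 to 20.50 on the contralateral arrays. At an unadjusted p of 0.05 or less 2 were higher, Calca (the gene of CGRP) by 0.26 and Thy1 by 0.87, at adjusted p of 0.446 and 0.447, and 0 were lower. Within slide 2 their differences were 0.19 and -0.35. Their part in the values of the respiratory chain genes was not tested.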

How the data were processed

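RNA of 11 TRG was analysed, grouped by the sample labels. For each array the authors deposited intensity values from Agilent Feature Extraction (version 11.0.1.1 in the submitters' processing notes), with a detrended background subtracted and no normalisation between arrays. The authors also deposited linear intensity values, quantile normalised across arrays with limma, which were used as an alternative. Columns of that table that hold comparisons were not used.

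From these values, 1417 control spots were left out, spots with an outlier flag (1.38% of spots) were set to missing, and the log2 processed signal of 42136 spots was quantile normalised. Spots of a probe were averaged to 24684 probes, 46 of them with a missing value. The test was that of limma 3.58.1 (R 4.3.3), CFA minus contralateral, with no covariate (prior SD 0.234 on 1.87 degrees of freedom) and Benjamini-Hochberg adjustment over all probes. The script recovered known changes in simulated data. These had no slide effects and changes larger than that of any member, so they do not cover changes of the size reported here. Tabulation used pandas 2.3.3 on Python 3.11.15 and plotting matplotlib 3.10.9.

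Accessions were named through a RefSeq table of a later assembly than the arrays' own, and 14274 of 15321 mRNA probes matched. Genes not matched were not analysed here. The values of 1 member are not reported here, although it is in the counts. Named genes were the 3 smallest p in each complex, a list chosen by role, the smallest p in each pathway list and the extremes of spread. Others (Cox6b2, Ndufa5 and the further markers) were chosen after their values were seen. The members, lists and tests were chosen with earlier results of these data known.

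Equal rat numbers in the labels mark the same animal, and the rat was entered as a block in an alternative. After removal of group means, the correlation of a rat's sides across probes was over 0.1 in 1 of 5 rats. In the others it was negative, from -0.0833 to -0.00933. In 0 of 5 rats did the CFA side correlate best with the contralateral side of the same rat. No rat had both sides on 1 slide. The alternatives were the scaling, background correction (with the median signal, since the mean signal was not among the columns used), the authors' table, a filter on dim probes, an intensity trend, the mean of a gene's probes, the rat, the slide, the scan day and leaving out each array.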

Additional observations from a re-analysis of the deposited data

Results flagged for a closer look

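In 6 of the 68 groups tested among the named genes, the highest or lowest array stood apart from the rest of its group by Dixon's criterion. Chance flags about 1 in 20 groups. Ndufa2 on the contralateral array of rat 2 read 11.18, against 11.36 to 11.43 on the others of its group. Ndufb5 on the contralateral array of rat 6 read 11.50, against 11.68 to 11.75. On the CFA array of rat 3, Ndufaf1 read 9.13, against 9.66 to 9.76, and Uqcrb read 11.12, against 11.43 to 11.60. Cox4i2 on the CFA array of rat 8 read 7.22, against 7.58 to 7.76, and Cox8a on the CFA array of rat 6 read 16.81, against 17.15 to 17.29. Over all 76 genes 11 of 152 groups were set apart in this way.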

How the results depend on the processing

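The median log2 change moved from -0.03 to -0.135 with 75th percentile scaling, where all probes had a median of -0.063. No member passed the study's threshold, except for 1 with the slide as a block. The count of lower genes at an unadjusted p of 0.05 or less was 6, and it was 0 with the rat as a replicate block, 0 with the slide and 0 with the scan day as a block. The share of all probes that were lower was 6.75%, and 6.1%, 2.87% and 2.34% with these blocks. Leaving out each array gave 1 to 10 lower genes and 0 to 1 higher. Of all probes 4.23% to 9.96% were then lower and 2.44% to 5.85% higher. The count of higher genes, 0, was 1 with a variance trend and with the rat as a replicate block, where 4.23% and 3.8% of all probes were higher. With the slide as a block Cox8b turned to 0.03 and Cox6a2 to 1.11. Scan day 1 held all 5 contralateral arrays and CFA rat 1, and the other days held CFA arrays only. The change with the scan day as a block is thus that of CFA rat 1 against the contralateral arrays. With this block Atp5pd turned to 0.02, while Ndufb5 was at -0.20 and Ndufa12 at -0.16. Why CFA rat 1 differed from the other CFA arrays was not tested. Apart from the 3 turned values of Cox8b, Cox6a2 and Atp5pd, 623 values of named genes under the alternatives kept their sign and their side of an unadjusted p of 0.05. Another 56 kept their sign but were no longer past it, and 11 kept their sign and came past it. In 54 the sign turned, with no p past 0.05 in the main fit or the alternative. No member had an adjusted p of 0.05 or less under any alternative. The number of arrays and the single spot per gene limit the precision. Uqcrq and Cox8c were not well above background.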
